A study of Homo sapiens with 2 samples.

Results

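The receptors of epidermal growth factor (EGF), the ligands that bind them and a feedback inhibitor of these receptors were measured in the human line Ca9-22, grown out of a squamous cell carcinoma of the gingiva and infected with a PTHLH vector or with an empty vector. Both cultures carried a vector and were kept for 2 weeks in blasticidin, a drug that removes cells without the vector's resistance gene, so the controls had also been transduced and selected. RNA of 1 culture of each kind was hybridised to 1 Affymetrix U133 array, and the study's methods describe enrichment of the infected cells by the drug and call the stable cells of its growth assays a mixture. The family was taken as 10 listed genes, the receptors EGFR, ERBB2 and ERBB3, the ligands EREG, HBEGF, TGFA, BTC, EPGN and NRG1, and the inhibitor ERRFI1. A probe set, the short DNA probes that together read a given transcript, belonged to the family where its only gene symbol in the platform annotation, current or older, was 1 of these. This gave 35 of 54675 probe sets, for 9 of the 10 genes and of 19775 genes in all. EPGN had no probe set named here and is not analysed. Since each culture gave a single array, the differences have no test and no SD between cultures.

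The EGF receptors are receptor tyrosine kinases that pair when a ligand binds and then signal through the RAS-ERK and PI3K-AKT cascades. Their ligands are made as membrane-anchored precursors, and proteases such as ADAM17 release them to act on the same or on neighbouring cells. In squamous epithelium the pathway supports keratinocyte growth and migration, and EGFR is a drug target in tumours of this epithelium. PTHLH, the parathyroid hormone-like hormone that the study placed in these cells, is itself a secreted ligand of another class of receptor, and its own level is not analysed here.

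Intensities were linear, in arbitrary units. The PTHLH array had a median of 19.4 and the empty vector array one of 19.5. A probe set is called bright here when it lay above the median of both arrays. KRT5 and KRT14, keratins of basal squamous epithelium, had 10228 and 2223 on the PTHLH array, against 7823 and 2186 on the array of the control. CDH1, the epithelial cadherin, had 1399 with PTHLH and 1567 with the empty vector. All 7 squamous epithelial marker genes measured here were bright. The leukocyte marker PTPRC had 7.84 with PTHLH and 7.05 with the empty vector, below both medians. The mesenchymal marker VIM had 18.7 with PTHLH and 20.3 with the empty vector, near the medians. Of the markers measured, 3 of 7 mesenchymal, 2 of 4 endothelial and 0 of 3 leukocyte genes were bright. The endothelial marker VWF had 128 with PTHLH and 129 with the empty vector. COL1A1, a collagen listed with the mesenchymal markers, made up most of the summed level of the 7 genes of that list, with 1652 of 1760 on the PTHLH array and 2437 of 2539 on the empty vector array, and the part of other cells in the results was not tested. Of the control genes, GAPDH differed by 0.03 and ACTB by 0.30 on the log2 scale, PTHLH minus empty vector. A description field of the samples names the line CX-1 and the gene RAB3C, against the titles, which name Ca9-22 and PTHLH and were followed.

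No probe set of the family was changed by 1.5-fold, the threshold of the study, in either direction. Over all 54675 probe sets, 1.81% were higher with PTHLH by 1.5-fold or more and 2.65% were lower, so a count of 0 of 35 lies near the shares of all probe sets and does not set the family apart. Log2 differences, PTHLH array minus empty vector array, ran from -0.53 for a probe set of TGFA to 0.52 for a probe set of ERBB3. They lay above 0 for 22 probe sets, below 0 for 11 and at 0 for 2, which held an identical value on both arrays. The median was 0.09, against 0 for all probe sets. Of the 35, 22 were bright, and these had 14 differences above 0 and 8 below, with a median of 0.09.

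**Figure D1:**
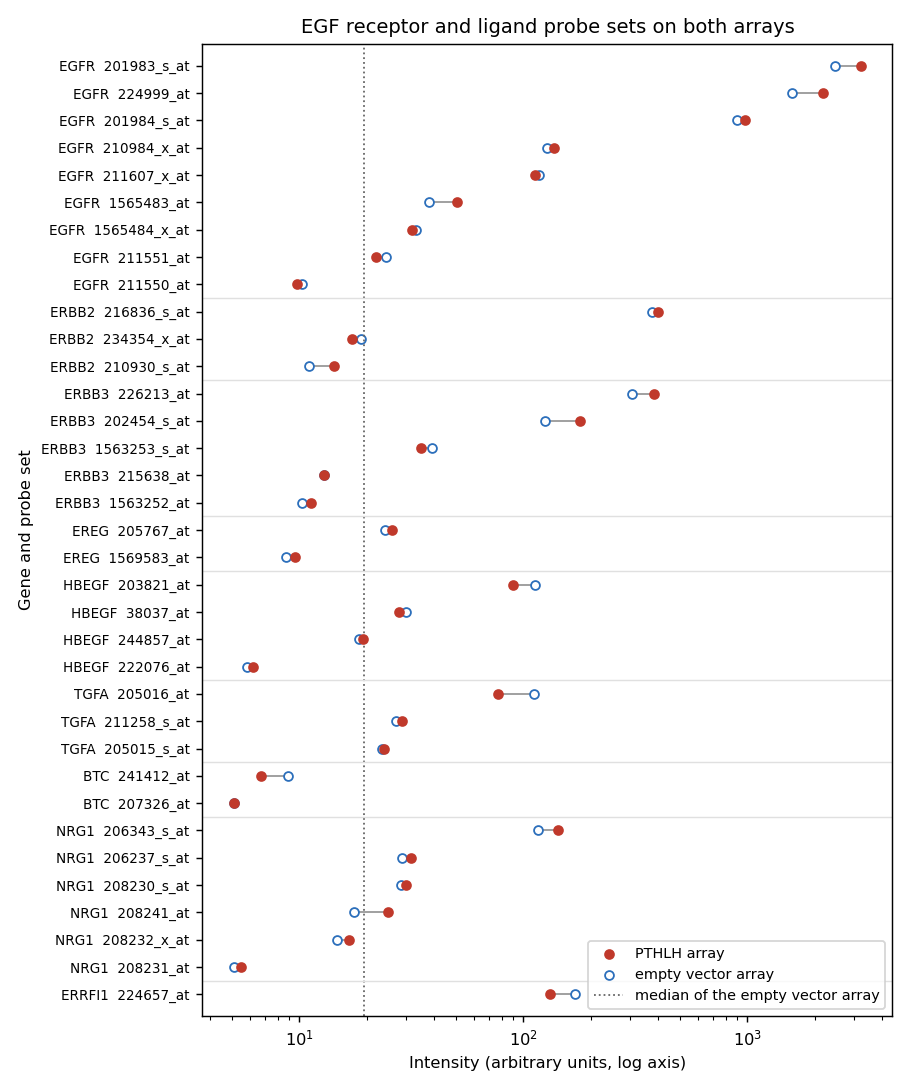
Intensities (log axis, arbitrary units) of the 35 probe sets of the family, grouped by gene, with a filled red point for the PTHLH array, an open blue point for the empty vector array and a dotted line at the median of the empty vector array (19.5). The 3 brightest probe sets of EGFR and the 2 brightest of ERBB3 lie to the right with PTHLH, and the brightest of HBEGF and TGFA and the only one of ERRFI1 lie to the left.

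The only measure of error in these data is how far probe sets of one gene disagree. From the 2 brightest probe sets of each gene, a single log2 difference had an SD of 0.23 over 10523 genes. It shrank with brightness, to 0.18 over the 2184 genes whose second probe set had a mean log2 intensity of 6 to 8, and to 0.12 over the 793 genes where it was at least 8. Over the 5594 genes whose 2 probe sets were both bright, 2 SDs came to 0.41, which among bright probe sets of the family was exceeded only by 224999_at and 1565483_at of EGFR, 202454_s_at of ERBB3 and 205016_at of TGFA. These SDs cover disagreement between probes and not between cultures. For a probe set outside a gene's 2 brightest, or a gene's only one, its own level was used in place of the second one's.

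Among the receptors, EGFR and ERBB3 had higher values with PTHLH on their brightest probe sets, whereas ERBB2 differed little. EGFR, on chromosome 7, binds most ligands of the family. Its brightest probe set, 201983_s_at, had 3222 on the PTHLH array and 2466 on the empty vector array, a log2 difference of 0.39 (1.31-fold). The next, 224999_at, had 2186 with PTHLH and 1581 with the empty vector (0.47, 1.38-fold), and 201984_s_at had 973 with PTHLH and 898 with the empty vector (0.12). All 3 were higher with PTHLH, with a mean log2 difference of 0.32 ± 0.18 (SD over 3 probe sets of 1 pair of arrays). Over all 8 bright probe sets of EGFR the mean was 0.15 and the SD 0.24. Probe sets are not repeats of a culture. Of the brightest 3, the first and second exceeded 2 SDs of the disagreement between probe sets at a log2 level of at least 8 (0.25), and 201984_s_at did not. The first lay within the 0.41 of all bright probe sets. Of the 12982 genes with a bright brightest probe set, 18.4% lay at least as far from 0 as EGFR did.

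The dimmer probe sets of EGFR were mixed. Probe set 210984_x_at had 138 with PTHLH and 127 with the empty vector (0.11), and 211607_x_at had 113 with PTHLH and 117 with the empty vector (-0.06). Probe set 1565483_at, with 50.7 and 37.9 on the PTHLH and empty vector arrays, had 0.42. That lay within 2 SDs at a log2 level of 4.3 to 6 (0.49), and became 0.31 when 16 units were added to every intensity. The partner of 1565483_at for the same transcript record, 1565484_x_at, had 31.8 and 33.2 on these arrays and a difference of -0.06. The remaining 2 had -0.15 (211551_at) and -0.07 (211550_at, below both medians). Over all 9 probe sets the median was 0.11, with 5 above 0 and 4 below. The suffix x marks probe sets that can bind other transcripts as well.

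Promoter windows from RefSeq (GRCh38.p14) were read for 8 of the 10 genes, without ERBB3 and NRG1, and EGFR had 2 transcription starts of unlike sequence. Both are shown because the deposited probe sets do not say which start the EGFR transcripts came from. Each run gives the 250 bases before the start, 5′ to 3′, with matches in capitals to 6 motifs searched on both strands: TGACGTCA (the cAMP response element, CRE), TGACG (its core, which lies within it), TGANTCA (AP-1), TGTGGT (RUNX), the GC box GGGCGG and the TATA box TATAAA. EGFR start 1 lies at chr7:55018767-55019016 and start 2 at chr7:55109589-55109838, both on the plus strand.
EGFR start 1: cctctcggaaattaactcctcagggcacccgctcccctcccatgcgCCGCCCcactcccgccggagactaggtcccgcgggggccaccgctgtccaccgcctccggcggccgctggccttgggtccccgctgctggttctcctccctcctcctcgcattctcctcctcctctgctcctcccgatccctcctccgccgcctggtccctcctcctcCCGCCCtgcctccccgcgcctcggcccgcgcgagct
EGFR start 2: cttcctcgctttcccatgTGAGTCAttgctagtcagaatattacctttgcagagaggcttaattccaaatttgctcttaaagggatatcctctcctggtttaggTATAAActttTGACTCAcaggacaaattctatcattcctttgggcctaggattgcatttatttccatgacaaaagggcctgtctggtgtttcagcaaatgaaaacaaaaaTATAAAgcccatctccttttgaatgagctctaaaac

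In the first window, 73.6% of bases were G or C and the matches were GC boxes at -204 and -36, counted from the start. The second window, within the gene, had 38.8% G or C, with AP-1 matches at -232 and -136 and TATA matches at -146 and -36. Of all 35116 promoter windows of this length, 42.6% held a GC box, 6.57% an AP-1 match and 10.7% a TATA match, and the median G or C content was 58%. In the other members' windows, AP-1 matched once more, in ERBB2 at -222. The full CRE, present in 1.65% of all windows, and the RUNX letters, present in 11%, were found in none of the 10 windows read. The CRE core, in 21.2% of all windows, was found in EREG at -125, in EPGN at -44 and in TGFA at -154. A match describes letters only.

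ERBB3, on chromosome 12, is a receptor with little kinase activity of its own that binds neuregulins and signals as a partner of the other receptors. Probe set 226213_at had 383 on the PTHLH array and 304 on the empty vector array (0.33, 1.26-fold). Probe set 202454_s_at had 180 with PTHLH and 125 with the empty vector (0.52, 1.43-fold), the largest positive difference of the family. Probe set 202454_s_at exceeded 2 SDs for genes whose second probe set had a log2 level of 6 to 8 (0.37), as here. Probe set 226213_at lay within that limit and within the 0.41 of all bright probe sets. Its own log2 level was at least 8, where 2 SDs came to 0.25, which it exceeded. Of the 12982 genes with a bright brightest probe set, 24.4% lay at least as far from 0 as ERBB3 did on 226213_at. The remaining bright probe set, 1563253_s_at, went the other way, with 35.0 with PTHLH and 39.0 with the empty vector (-0.16). The 2 probe sets below both medians had 0 and 0.14.

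ERBB2, on chromosome 17, has no ligand of its own and is the preferred partner of the other receptors. Its only bright probe set, 216836_s_at, had 400.3 with PTHLH and 375 with the empty vector (0.09, 1.07-fold), within the disagreement between probe sets. The other 2, below both medians, had -0.14 and 0.37, the second from intensities of only 14.3 and 11.1 on the PTHLH and empty vector arrays.

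Among the ligands of EGFR, the brightest probe sets of TGFA and HBEGF were lower with PTHLH, but neither difference was shared by all probe sets of the gene. TGFA, transforming growth factor alpha on chromosome 2, is a classical autocrine ligand of keratinocytes. Probe set 205016_at had 77.4 on the PTHLH array and 112 on the empty vector array, a log2 difference of -0.53, the lowest of the family. Its size exceeded 2 SDs for genes whose second probe set had a log2 level of 4.3 to 6 (0.49), as here. Of the 12982 bright genes, 8.79% lay at least as far from 0. The other 2 probe sets of TGFA, also bright, hardly differed. Probe set 211258_s_at had 28.9 with PTHLH and 27.0 with the empty vector (0.10), whereas 205015_s_at had 23.9 on the PTHLH array and 23.5 on the other (0.02). The gap of -0.63 between the first probe set and the second was the widest between the 2 brightest probe sets of any member.

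HBEGF, heparin-binding EGF-like growth factor on chromosome 5, is shed from the surface of injured epithelium. Probe set 203821_at had 90.0 with PTHLH and 113 with the empty vector (-0.33), and the second, 38037_at, had 27.8 with PTHLH and 30.1 with the empty vector (-0.12). The 2 below both medians had 0.07 and 0.08. None of the 4 exceeded 2 SDs of the disagreement between probe sets. The promoter windows of these ligands are printed because theirs were the bright ligand probe sets with the lowest differences. HBEGF lies on the minus strand at chr5:140346604-140346853, and the first of 2 starts of TGFA on the minus strand at chr2:70553827-70554076, with capitals as for EGFR.
HBEGF: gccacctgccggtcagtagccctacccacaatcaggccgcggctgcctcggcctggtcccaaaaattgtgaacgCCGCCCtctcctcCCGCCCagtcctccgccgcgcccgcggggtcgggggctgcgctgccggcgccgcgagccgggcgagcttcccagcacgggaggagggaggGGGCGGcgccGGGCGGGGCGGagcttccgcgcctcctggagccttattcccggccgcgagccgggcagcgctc
TGFA start 1: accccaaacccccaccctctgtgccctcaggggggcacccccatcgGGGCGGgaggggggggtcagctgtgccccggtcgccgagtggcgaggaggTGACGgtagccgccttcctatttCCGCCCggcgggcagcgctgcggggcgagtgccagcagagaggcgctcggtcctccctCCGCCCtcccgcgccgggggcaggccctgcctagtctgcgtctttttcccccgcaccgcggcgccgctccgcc

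The HBEGF window was 76.4% G or C with 5 GC box matches, and the TGFA window was 75.6% G or C with 3 GC box matches and 1 of the CRE core. The second start of TGFA held none of the 6 motifs.

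EREG and BTC, ligands that bind EGFR and ERBB4 and are encoded on chromosome 4 with EPGN, were dim. EREG, epiregulin, had 25.8 with PTHLH and 24.04 with the empty vector (0.10) on its bright probe set and 9.59 with PTHLH and 8.75 with the empty vector (0.13) on the other. BTC, betacellulin, lay below both medians on both probe sets, with 6.75 on the PTHLH array and 8.91 on the empty vector array (-0.40) and with 5.14 on both arrays. The files give no background level for intensities this low, and the difference of BTC was -0.13 when 16 units were added to every intensity.

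NRG1, neuregulin 1 on chromosome 8, binds ERBB3 and ERBB4. All 6 of its probe sets were higher on the PTHLH array, with log2 differences between 0.08 and 0.50 and a median of 0.15. The brightest, 206343_s_at, had 142 with PTHLH and 117 with the empty vector (0.29, 1.22-fold). The largest difference belonged to 208241_at, which had 24.96 with PTHLH and 17.6 with the empty vector (0.50, 1.42-fold), above the median on the PTHLH array alone. No probe set of NRG1 exceeded 2 SDs of the disagreement between probe sets of its brightness, except 208241_at. At 0.50 it lay just past the 0.49 of probe sets with a log2 level of 4.3 to 6. When 16 units were added to every intensity, 208241_at had 0.29. The probe sets were made from several transcripts of this gene, so their differences are not repeats of a single measurement.

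ERRFI1, on chromosome 1, encodes MIG6, a protein induced by receptor signalling that binds the kinase domain of EGFR and blocks it. Its only probe set, 224657_at, had 132 on the PTHLH array and 169 on the empty vector array, a log2 difference of -0.36. That lay just within the 2 SDs (0.37) of genes whose second probe set had a log2 level of 6 to 8, the level of 224657_at. Without a second probe set, disagreement within ERRFI1 itself could not be measured. Of the 12982 bright genes, 20.8% lay at least as far from 0.

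**Figure D2:**
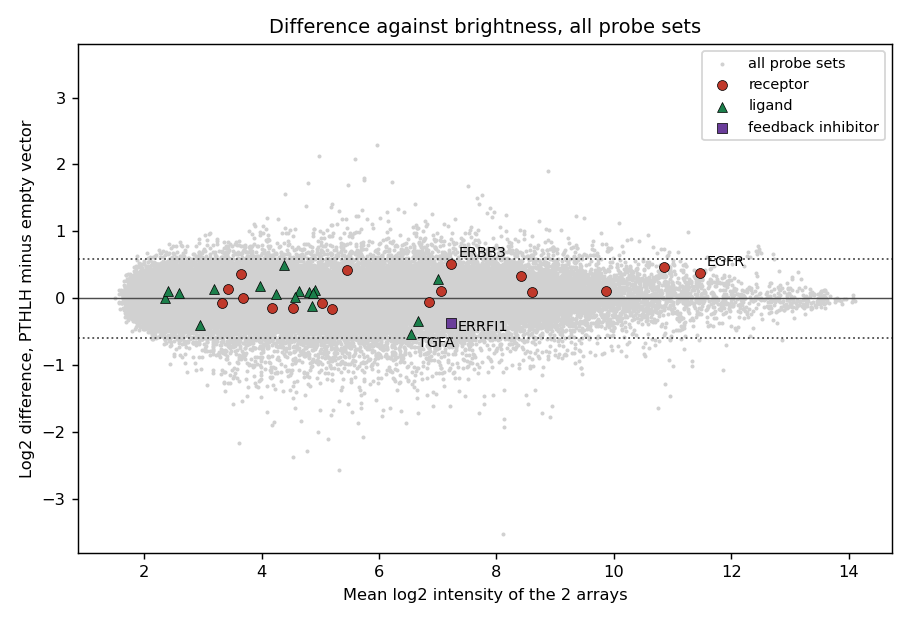
Log2 difference, PTHLH minus empty vector, against the mean log2 intensity of the 2 arrays, for all 54675 probe sets (grey) and those of receptors (red circles), ligands (green triangles) and the feedback inhibitor (purple square), with dotted lines at 1.5-fold. All 35 family points lie between the dotted lines, from -0.53 (TGFA) to 0.52 (ERBB3).

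With each gene represented by its brightest probe set, none of the 9 members was at least 1.5-fold changed, against 1.97% of 19775 genes higher and 3.52% lower. By a lower threshold of 1.2-fold, chosen after the values had been seen, 2 of 3 receptors (EGFR and ERBB3) were higher and none was lower, and among 5 ligands NRG1 was higher and HBEGF, TGFA and BTC were lower, as was ERRFI1. Of the 35 probe sets, 8 were at least 1.2-fold higher and 4 at least 1.2-fold lower, against 14.5% and 13.8% of all probe sets. Over all genes 15.0% were at least 1.2-fold higher and 15.6% at least 1.2-fold lower. The median log2 difference was 0.33 for the receptors and -0.33 for the ligands. This split rested on the choice of probe set. When the probe sets of a gene were summarised by their median, no member was 1.2-fold higher, and ERRFI1, with a single probe set, was the only one 1.2-fold lower. Medians over probe sets were 0.11 for EGFR, 0.09 for ERBB2, 0.14 for ERBB3, 0.02 for TGFA, -0.02 for HBEGF, -0.20 for BTC, 0.12 for EREG and 0.15 for NRG1.

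Other genes of the pathway were read from 7 lists of textbook members. In the list of other receptors and ligands, the 5 measured genes lay within 1.5-fold and 4 were below both medians, among them ERBB4 (10.7 on both arrays) and EGF (6.44 on both arrays). NRG4, a ligand of ERBB4, had 19.6 with PTHLH and 15.3 with the empty vector (0.36), around the medians. Over all 7 lists, 80 of 92 genes were measured here, of which 1 was higher and 7 were lower by 1.5-fold or more, against 1.97% and 3.52% of all genes. Their median log2 difference was -0.07, against 0 for all genes.

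All 7 lower genes and the higher one belonged to 2 of the lists. In the PI3K, AKT, PLC and STAT arm, 4 of 11 measured genes were lower and 1 was higher, against 3.52% and 1.97% of all genes. The median of the arm was -0.18. That median became -0.44 when each gene took its most changed probe set and -0.38 without suffixes x and s. With quantile normalization it was -0.21. By the median over probe sets it was -0.22, and 0 genes of the arm were lower and 0 higher. PRKCA, a protein kinase C that phosphorylates EGFR, had 127 with PTHLH and 241 with the empty vector (-0.92), and its other bright probe sets had -0.39 and -0.27. PLCG2, a phospholipase that makes the activators of protein kinase C, had 209 with PTHLH and 336 with the empty vector (-0.68, with -0.46 on its other bright probe set). STAT3, a transcription factor activated by EGFR and by cytokine receptors, had 310.0 with PTHLH and 489 with the empty vector (-0.66), with -0.61 and -0.27 on its other bright probe sets. The fourth was PIK3CD, a catalytic subunit of PI3K (-0.61, but 0.18 on a dim probe set), and the higher one PIK3R3, a regulatory subunit (0.59, but 0.06 on a dim one). These 2 were named after their values had been seen. The study itself selected all 5 from the same pair of arrays by this fold change, so the count is not independent evidence of a direction. AKT2 of this arm, also selected by the study, had 0.34 on its brightest probe set and -0.33 and -0.26 on its other bright ones. A dim one had -0.69, past 1.5-fold.

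In the list of receptor ubiquitination and inhibition, 3 of 15 measured genes were lower and none was higher, against 3.52% and 1.97% of all genes. The median of this list was -0.10. SOCS3, an inhibitor of cytokine signalling that also binds EGFR, had 74.3 with PTHLH and 197 with the empty vector (-1.40), whereas its other bright probe set had -0.08 and the dim ones ran between -0.74 and 0.27. CBLC, an epithelial ubiquitin ligase of the CBL family that marks EGFR for degradation, had 145 with PTHLH and 286 with the empty vector (-0.98), and 0.09 on its other bright probe set. LRIG1, a membrane protein that promotes loss of EGF receptors, had 20.6 with PTHLH and 38.2 with the empty vector (-0.89), and 0.10 on its other bright probe set. No other probe set of CBLC or LRIG1 was lower with PTHLH, and SOCS3 had a dim one past 1.5-fold. SOCS3 is also among the genes that the study selected from these arrays. Without probe sets of suffix x or s, 1 of 12 genes of this list was lower and its median was -0.013, and by the median over probe sets none was lower and the list's median was 0.0059. Over all 80 genes, that summary left none at least 1.5-fold lower and 1 at least 1.5-fold higher, which was not PIK3R3 (0.33) but ITGA6, a laminin receptor subunit (0.60).

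The remaining 4 lists had no gene at least 1.5-fold changed on its brightest probe set. Among 13 genes of ligand shedding and transport (median -0.12), TIMP3, an inhibitor of ADAM17, had 539 with PTHLH and 753 with the empty vector (-0.48), and its 3 other probe sets, all bright, lay between -0.32 and -0.31. The sheddase ADAM10 had 0.25, ADAM17 had -0.14 and ADAM19 had -0.32. Among 11 adaptors and kinases of the ERK cascade (median -0.01), the adaptor SHC1 had 3837 with PTHLH and 5158 with the empty vector (-0.43, but 0.14 on its other probe set), the kinase MAPK3 had -0.37 and the GTPase HRAS had 0.27. Among 15 genes of receptor endocytosis and sorting (median 0.06), the endosomal sorting protein STAM2 had -0.32, the clathrin adaptor subunit AP2M1 had 0.29 and the receptor adaptor EPS15 had 0.25. Among 10 co-receptors and matrix partners of the ligands (median -0.01), ITGA6 had 911 with PTHLH and 673 with the empty vector (0.44). Its other bright probe set had 0.77, past 1.5-fold. The mucin MUC1 had -0.46, and the heparan sulfate proteoglycan SDC1 had 2033 with PTHLH and 1554 with the empty vector (0.39). GPC1 and CD44 of this list were lower past 1.5-fold on another bright probe set (-0.76 and -0.585). So was HGS of receptor endocytosis and sorting (-0.64). ITGA6 and CD44 are also among the genes that the study selected from these arrays.

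**Figure D3:**
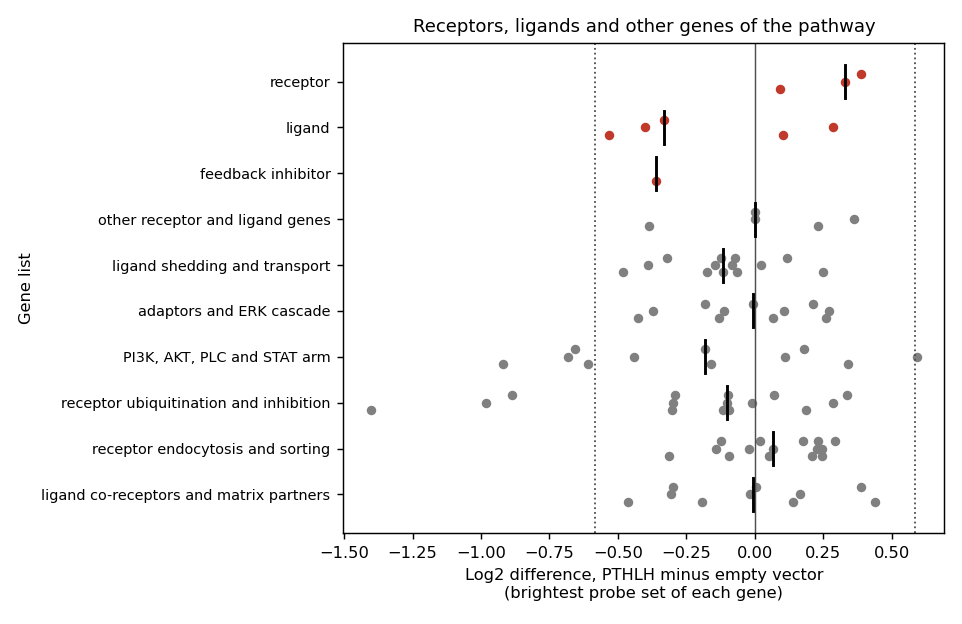
Log2 difference, PTHLH minus empty vector, of the brightest probe set of each measured gene, by list, with the family in red and other genes of the pathway in grey, black bars at list medians and dotted lines at 1.5-fold. No red point lies past a dotted line, and the points past the left one, down to -1.40 (SOCS3), belong to the PI3K, AKT, PLC and STAT arm and to receptor ubiquitination and inhibition.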

How the data were processed

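Total RNA of 1 culture of Ca9-22 cells with a PTHLH vector and 1 with an empty vector was measured on 1 Affymetrix array each. The deposited values are probe set intensities, which the authors derived from scans and left on a linear scale. The sources used here give no software, background correction, normalization between arrays or detection calls. Precision is limited by having 2 arrays. Samples were grouped by their labelled vector.

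Log2 intensities were subtracted, PTHLH minus empty vector, without further normalization, and no test was run. Probe sets were named through the platform annotation, with symbols updated by gene identifier (GRCh38.p14, no gene coordinates used). Of 54675 probe sets, 41097 had 1 symbol, 1801 with several were left out and 11777 are unnamed here. For NRG1, 2 probe sets whose symbol is also an older name of it belong to another gene and were left out. A gene was represented by its brightest probe set, by mean log2 intensity. The family and all lists were chosen with earlier results of these data known. By rule the text names every member, the 3 genes of each list with the largest difference above a median on at least 1 array, and a few markers and controls. Other genes are named as examples. Alternatives were quantile normalization, centring, adding 16 units, leaving out suffixes x and s or dim probe sets, the median or largest change over probe sets, and 2-fold, plus 1.2-fold added after the values were seen. The counting was tested on simulated data. Promoters came from RefSeq. Python 3.11.15, pandas 2.3.3, numpy 2.4.6 and matplotlib 3.10.9 were used.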

Additional observations from a re-analysis of the deposited data

How the results depend on the processing

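No member gene or probe set was at least 1.5-fold changed under any alternative at that threshold or under 2-fold. At 1.2-fold, 8 member probe sets were higher and 4 lower (14.5% and 13.8% over all probe sets), and 3 member genes were higher and 4 lower (15.0% and 15.6% over all genes). With the median over probe sets at 1.2-fold, 1 member gene was lower. No member probe set changed sign under quantile normalization, centring or the added 16 units. The largest shift was 0.27, of a dim probe set of BTC that went to -0.13 with the added 16 units. Adding units shrinks the differences of dim values by arithmetic, so the disagreement between probe sets (an SD of 0.23) does not measure this shift. The dim probe set 208241_at of NRG1 went from 0.50 to 0.29 with the added 16 units.

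Of the 80 other pathway genes, 1 was higher and 7 were lower at 1.5-fold, against 1.97% and 3.52% of all genes. PIK3R3 lay just past the threshold, so 0 were higher with quantile normalization, with 16 units added and at 2-fold. With the largest change over probe sets, 2 were higher and 11 lower. Lower were 5 with 16 units added, 6 without suffixes x and s, 1 at 2-fold and 0 with the median over probe sets. At 1.2-fold, 9 were higher and 21 lower, against 15.0% and 15.6% of all genes. Shares over all genes were taken only for the brightest probe set at 1.5-fold and 1.2-fold. The counts of the other settings have no such share. The median log2 difference of the 80 genes, -0.07, became -0.14 with the largest change, 0 with the median over probe sets and -0.036 without suffixes x and s. No gene of the list of other receptors and ligands was bright, so that list gave no value among bright genes. No paired analysis was possible because each condition has 1 array. Without detection calls, dim values have no stated background.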

Other observations

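Other receptor tyrosine kinases, a list written after the values above had been seen, were set beside the EGF receptors. Of 46 measured genes, 18 lay below both array medians, 2 were higher and 3 lower with PTHLH by 1.5-fold or more, against 1.97% and 3.52% of all genes, with a median log2 difference of 0.01. The study selected the receptors FGFR2, FGFR3, FGFR4 and EPHA3 from these arrays by the same fold change, so the counts give no independent evidence of direction. The receptors of fibroblast growth factors were among both. FGFR3 had 519 on the PTHLH array and 306 on the empty vector array (1.70-fold higher), and its other probe set, not above both medians, had a log2 difference of 0.27. FGFR2, the receptor of keratinocyte growth factor in epithelium, had 228 with PTHLH and 135 with the empty vector (1.69-fold higher), and its 10 other probe sets lay between -0.27 and 0.59. FGFR4 had 228 with PTHLH and 395 with the empty vector, a log2 difference of -0.79, with its other bright probe sets between -0.44 and -0.28. The other 2 lower genes were EPHA3, an ephrin receptor below both medians (-0.77), and STYK1 (-0.73, and -0.21 on its other probe set). Whether these differences differ from those of the EGF receptors was not tested.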
